A study of Schizosaccharomyces japonicus with 2 samples.

Results

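The region described here is the left flank of a long stretch of supercontig 2 of the fission yeast Schizosaccharomyces japonicus in which almost no small RNA was mapped. Small RNA of the wild type, strain yFS275, was sequenced from cells in logarithmic growth in 2 libraries, replicate 1 and replicate 2. No treatment or mutant was compared, and the labels do not say whether the libraries came from separate cultures, so their spread may be technical. The region was chosen by its reads and by the emptiness next to it: it takes every mapped sequence that starts between bases 1803001 and 1853000 and spans 21 to 28 nt of the genome. A distinct combination of start, end and strand is a member. Of 223429 such positions in replicate 1, 5751 were members, with 11328 reads. Of 474395 in replicate 2, 18895 were members, with 88151 reads. Levels are reads per 1000000 (RPM) of the reads outside the first 37000 bases of supercontig 3, a block of abundant reads on a single strand that took 71.1% of the reads of these spans in replicate 1, and 29.5% of those in replicate 2. On this scale 1 read was worth 1.12 RPM in replicate 1 and 0.407 RPM in replicate 2.

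In fission yeasts, RNA interference acts on repeats and transposons. Transcripts of both strands form double-stranded RNA, Dicer cuts it into short duplexes, and Argonaute binds one strand of each and guides silencing and heterochromatin formation on the matching DNA. The small interfering RNAs of S. japonicus are known to come largely from retrotransposons, which lie mainly at its centromeres and telomeres. What the bases of this region encode was not analysed here, and neither its sequence nor that of its small RNAs is shown.

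The small RNA of the region lay almost wholly in its right part. In the 26 windows of 1 kb from base 1827001 onward, replicate 1 had 11208 reads (12605 RPM) and replicate 2 had 87997 reads (35807 RPM). In the 24 windows to their left there were 120 reads (135 RPM) and 154 reads (62.7 RPM). The boundary between this dense part and the sparse part was set after the values were seen. It was sharp in both libraries: the window of bases 1826001 to 1827000 held 3 and 12 reads, and the next window held 517 and 1781. The first member of the dense part started at base 1827055 in replicate 1 and at base 1827008 in replicate 2.

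**Figure D1:**
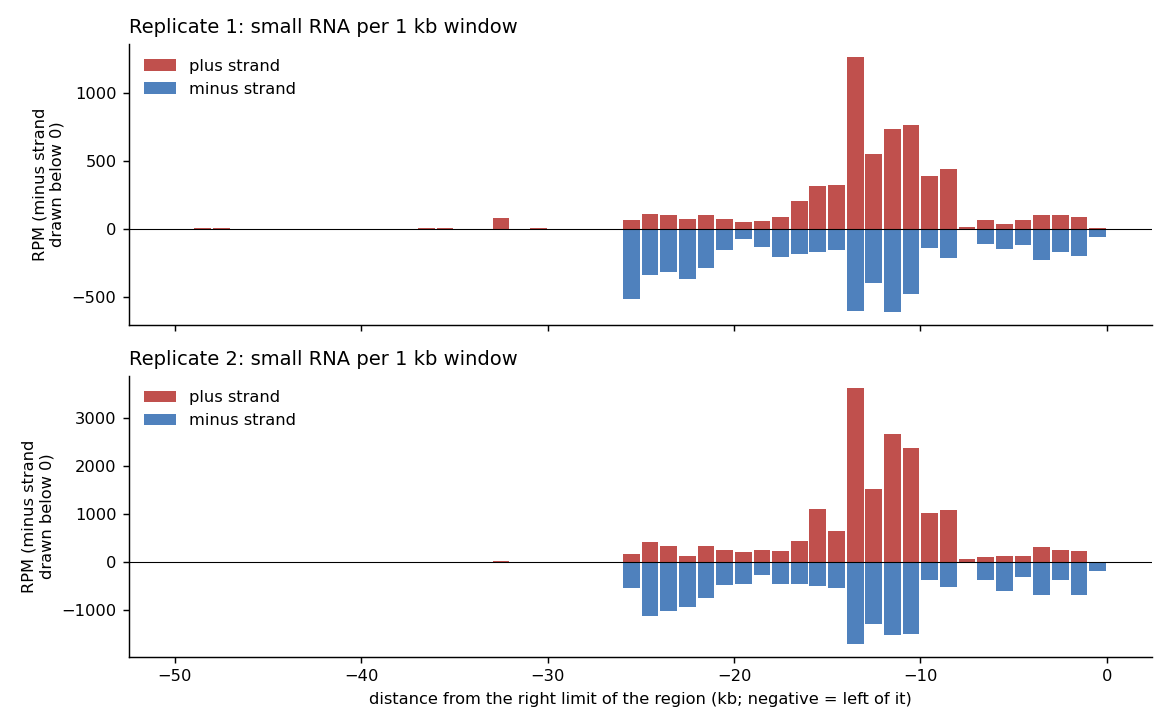
Small RNA in 1 kb windows of the region in each library (RPM), plus strand above 0 and minus strand below, against the distance in kb from the region's right limit. Both strands are read in nearly all of the rightmost 26 windows, the tallest bars are those of the plus strand in the window of 1875 and 5335 RPM, and the y axes of the libraries differ in scale.

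At the other end the reads stopped as abruptly. The last member ended at base 1852167 in replicate 1, a single minus-strand read, and at base 1852184 in replicate 2, a minus-strand member of 16 reads. Over the following 120 kb, bases 1853001 to 1973000, replicate 1 had 0 reads of 21 to 28 nt and replicate 2 had 13, against 1021 and 7799 reads in the last 5 kb of the region. Of the reads in those last 5 kb, 972 and 7434 aligned equally well in several places, so this edge too rests mostly on reads of undetermined place. A count of 0 allows up to 3 reads, or 3.37 RPM in replicate 1. On the far side the reads set in again at bases 1973131 and 1973036. On the left edge of the region counts were small on both sides: the first 5 kb inside held 15 and 19 reads, and the 5 kb just outside held 1 and 4. These edges belong to the way the region was chosen and are given as a description.

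Within the dense part, 24 of the 26 windows reached 100 RPM in both libraries, and they are called dense windows here. Their levels ran from 127 to 1875 RPM in replicate 1, with a median of 407, and from 446 to 5335 RPM in replicate 2, with a median of 1029. The other 2 windows were the last of the region and that of bases 1845001 to 1846000, which had 15.7 RPM in replicate 1 and 68.4 RPM in replicate 2. This thin window marked a break in the reads. No read of either library covered bases 1845406 to 1846180, a stretch of 775 bases. The next longest uncovered stretch between members of the dense part, 160 bases from base 1845224, lay in the same window. After the last member, 816 bases up to the right limit had no read in either library. Counted up to the last member of each library, 25167 and 25184 bases, members of replicate 1 covered 63.5% of the dense part on the plus strand, 68.4% on the minus strand and 45.1% on both. The more deeply sequenced dense part of replicate 2 was covered to 86.5%, 88.0% and 79.6%.

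Of the 5 densest windows, 4 lay side by side. Bases 1839001 to 1840000 had 1875 RPM in replicate 1 and 5335 RPM in replicate 2 (3605 ± 2447, SD, n = 2) and held 14.7% and 14.9% of the region's reads. Bases 1841001 to 1842000 had 1352 and 4194 RPM (2773 ± 2010), and bases 1842001 to 1843000 had 1248 and 3871 RPM (2559 ± 1854). Bases 1840001 to 1841000 followed with 949 and 2815 RPM (1882 ± 1319). Bases 1844001 to 1845000 had 650 and 1626 RPM (1138 ± 690). In each of them replicate 2 was the higher library. These 5 windows stood in the same order in both libraries.

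Strands were in balance over the region and out of balance within it. The plus strand held 48.9% of the region's reads in replicate 1 (95% Clopper-Pearson interval 48.0 to 49.9) and 50.7% in replicate 2 (50.4 to 51.0), or 49.8% ± 1.24 (SD, n = 2). In the rest of the series outside the block it held 48.1% and 41.5%. All 24 dense windows had at least 10% of their reads on each strand in both libraries, but the stronger strand changed along the region. It was the minus strand in 15 of them in both libraries and the plus strand in 8. In the other window, bases 1836001 to 1837000, 51.7% (replicate 1) and 49.1% (replicate 2) lay on the plus strand.

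These windows fell into 3 runs. In the 9 kb from base 1827001 to base 1836000 22.6% (replicate 1) and 28.3% (replicate 2) of the reads lay on the plus strand. From base 1836001 to base 1845000 it held 62.5% and 63.3%, and beyond the break, from base 1846001, it held 30.3% and 26.8%. The share of the plus strand in a window differed between the libraries by a median of 3.56 percentage points, and by under 5 in 16 of the 24 dense windows. The largest difference, in bases 1834001 to 1835000, was that between 28.7% in replicate 1 and 49.2% in replicate 2. The runs were drawn after the values were seen. Reads that aligned equally well in several places made up 97.0% and 96.4% of the first run. In the middle run they were 71.9% and 72.1%, and in the last 96.3% and 96.5%. The lead of the minus strand in the outer runs therefore rests almost wholly on reads whose place was not determined.

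Most sequences of the region aligned equally well in more than 1 place, which the deposited mapping score of 0 was taken to show, and each such sequence is listed at 1 of its places. They made up 80.3% of the region's reads in replicate 1 and 80.7% in replicate 2 (80.5% ± 0.297, SD, n = 2), beside 72.8% and 69.7% in the rest of the series outside the block. In the sparse part the shares were 6.67% and 0.649%. Along the dense windows their shares had medians of 98.3% and 98.1%, and 6 of the 24 windows were under 90% in each library, 4 of them the neighbouring windows of the peak. The lowest shares, 29.8% and 29.6%, were those of bases 1839001 to 1840000, the densest window of all. Bases 1840001 to 1841000 followed with 66.5% and 67.2%, and bases 1842001 to 1843000 with 70.1% and 71.1%.

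**Figure D2:**
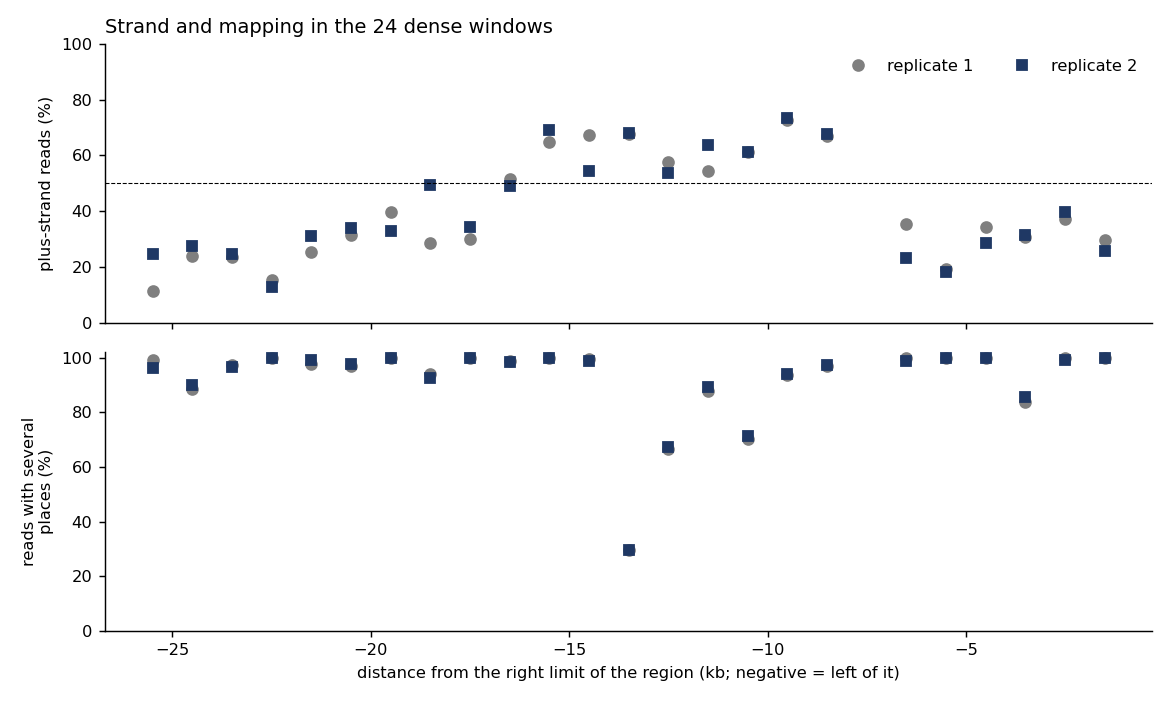
Share of reads on the plus strand (upper panel, %) and of reads with several places (lower panel, %) in each of the 24 dense windows, for replicate 1 (circles) and replicate 2 (squares), against the distance in kb from the region's right limit. The plus strand leads in the middle run and the minus strand on either side, and the share with several places drops to 29.8% and 29.6% in the densest window.

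The reads with a single best place therefore sampled a small part of the region. Of 2232 such reads in replicate 1 and 16999 in replicate 2, 86.6% and 90.3% fell in the 4 windows from base 1839001 to base 1843000, and 52.5% and 54.3% in the first of these. Of these reads 71.1% and 71.3% lay on the plus strand. Of the reads with several places 43.5% and 45.8% did, so the even strands of the whole region are the sum of unequal parts.

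The reads of the dense part were most often of 23 nt. This span held 38.5% of its reads in replicate 1 (37.6 to 39.4) and 38.2% in replicate 2 (37.8 to 38.5), followed by 24 nt with 22.0% and 23.7% and by 22 nt with 19.96% and 19.1%. Spans of 21 nt held 11.3% and 10.7%, and spans of 25 nt 8.22% and 8.33%. In the rest of the series outside the block 23 nt held 25.6% and 34.2%, and 21 nt held 23.2% and 13.3%. The mean 23-nt share was 38.2% ± 0.143 in the region and 29.9% ± 6.05 in the rest (SD, n = 2 each). Within a library the region stood 12.7 percentage points above the rest in replicate 1, and 3.96 in replicate 2. No test was run, since an exact two-sided permutation test of 2 such differences cannot give a p under 0.5. Counted by distinct position instead of by read, the shares were closer. They were 31.2% and 28.2% in the region and 27.5% and 27.4% in the rest. Supercontig 5, another place rich in reads of both strands, had 37.8% and 38.4% at 23 nt.

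**Figure D3:**
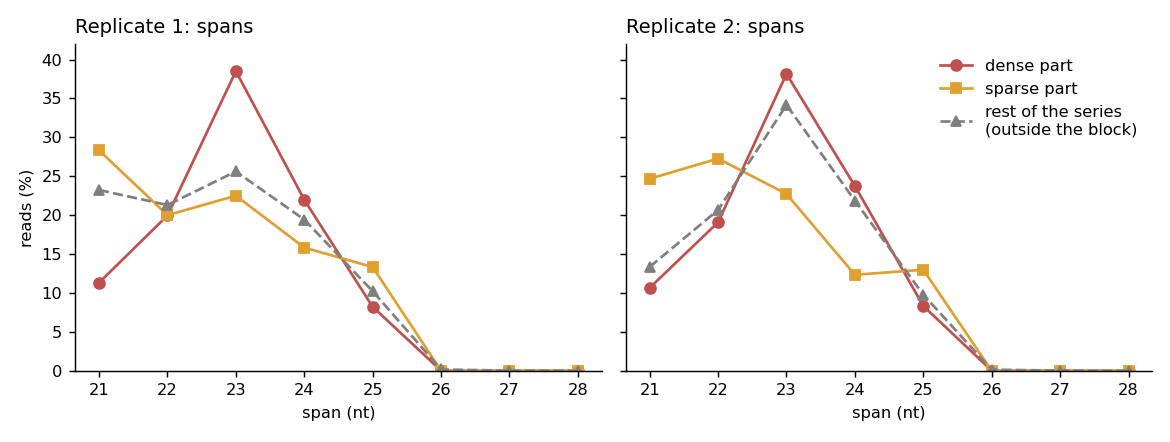
Share of reads (%) by span in nt, for the dense part (circles), the sparse part (squares) and the rest of the series outside the block (triangles), in each library. The dense part peaks at 23 nt with 38.5% and 38.2% of its reads, and the sparse part has no such peak.

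The preference for 23 nt was spread over the dense windows. It was the most frequent span in 21 of the 24 in replicate 1 and in 23 in replicate 2. The highest share of replicate 1, 65.4%, lay in bases 1827001 to 1828000, where 1 member of 239 reads made up 46.2% of the reads. Without that member the share there was 35.6%, beside 34.8% in replicate 2. By strand, the 23-nt share of the region was 36.4% and 37.5% on the plus strand and 40.2% and 38.8% on the minus strand. Reads with a single best place had 33.2% and 34.3%, and those with several places had 39.6% and 39.1%.

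The sparse part had another profile. Its 23-nt share was 22.5% of 120 reads in replicate 1 (15.4 to 31.02) and 22.7% of 154 reads in replicate 2 (16.4 to 30.2), and 21 nt held 28.3% and 24.7%. The intervals do not overlap those of the dense part in either library, but they cover counting error only and treat reads as independent, so this is not a test. By distinct position the parts were closer. The 23-nt share was 22.2% of 108 members and 23.9% of 142 in the sparse part, beside 31.4% and 28.2% in the dense part. Reads of 20 nt, just outside the chosen spans, numbered 6 and 66 in the region, against 1303 and 9415 of 21 nt.

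Of the sparse part's reads, 70 in replicate 1 and 64 in replicate 2 came from a single window, bases 1820001 to 1821000. In it 95.7% and 92.2% of the reads lay on the plus strand, between bases 1820050 and 1820877 in replicate 1 and between bases 1820037 and 1820944 in replicate 2. No member there had more than 4 reads. Apart from this window, the sparse windows held at most 6 reads in replicate 1 and at most 12 in replicate 2. Reads of both libraries were present in 18 of the 24 sparse windows, and in 13 of these every read of both libraries lay on the same strand. The longest run of such windows, bases 1806001 to 1815000, had 29 reads in replicate 1 and 33 in replicate 2 on the minus strand, with 0 on the plus strand in both. A pair of neighbouring windows, from base 1816001 to base 1818000, had reads of the plus strand only. Its longest stretch between members without a read in either library, 1469 bases, ran from base 1823777 to base 1825245. Others were 1309 bases from base 1814832, 976 bases from base 1825629 and 842 bases from base 1822910.

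The libraries differed in how much they held of each part. In the dense part replicate 2 had 7.85 times as many reads as replicate 1 (exact interval 7.70 to 8.01), or 2.84 times the RPM. Scaled to all mapped reads, the block included, the ratio was 6.94. In the sparse part it had 1.28 times as many reads (1.00 to 1.64), or 0.464 times the RPM (0.363 to 0.595). Scaled to all mapped reads the ratio was 1.13 (0.888 to 1.45), so the direction in the sparse part depends on the scaling. In the window of bases 1820001 to 1821000 the ratio was 0.914 in reads (0.641 to 1.30). The 3 runs of the dense part, each taken as a whole, kept close to one another, at 2.68, 2.88 and 2.92 times the RPM from left to right. Single dense windows varied more, from 1.25 to 5.29 times, with a median of 2.88. Supercontig 5 stood at 2.77, while the right side of the gap, bases 1973001 to 2023000, stood at 0.353. Each ratio sets a single library against another, so its spread over cultures was not measured.

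Reads were spread over many members. In replicate 1, 67.9% of the members had a single read and the most abundant had 239, and 968 members were needed to hold 50% of the reads. In replicate 2, 51.6% had a single read and the most abundant had 894, and 1151 members held 50%. On the right side of the gap, where the most abundant member had 15797 and 9935 reads, 44 and 34 members held 50%. Of the region's members, 3061 were listed in both libraries, which is 53.2% of the members of replicate 1 and 16.2% of those of replicate 2. Of distinct 5′ ends, 3250 were shared, or 76.0% and 29.05%. The same shares were not counted over the rest of the series, so nothing particular to the region can be read from them.

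The most abundant members with several places had very unequal values in the 2 libraries. Each such sequence is listed at 1 of its places, which may differ between the libraries, and this was not tested. Its count at a member is therefore not a measure of its abundance in a library. The 23-nt plus-strand member at bases 1841543 to 1841565 had 9 reads in replicate 1 (10.1 RPM) and 894 in replicate 2 (364 RPM). A neighbour on the same strand at bases 1841597 to 1841619, again of 23 nt, had 4 and 556 reads (4.498 and 226 RPM). The minus-strand member at bases 1827251 to 1827273 had 239 reads (269 RPM) in replicate 1, where it ranked first, and was not listed in replicate 2. Far fewer reads in replicate 1 than in replicate 2 were also listed for the minus-strand member at bases 1840746 to 1840768, with 1 and 402 reads (1.12 and 164 RPM), and for the 24-nt plus-strand member at bases 1843315 to 1843338, with 2 and 323 reads (2.25 and 131 RPM). Other abundant members with several places were closer. The 23-nt minus-strand member at bases 1828697 to 1828719 had 49 and 374 reads (55.1 and 152 RPM), and the 22-nt minus-strand member at bases 1851815 to 1851836 had 44 and 238 reads (49.5 and 96.8 RPM). The 21-nt plus-strand member at bases 1842582 to 1842602, which joined sequences with a single and with several places, had 44 and 355 reads (49.5 and 144 RPM).

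Members with a single best place kept a narrower ratio. The most abundant of them, of 24 nt on the plus strand at bases 1839659 to 1839682, had 38 reads in replicate 1 (42.7 RPM) and 335 in replicate 2 (136 RPM). A 22-nt member that began 2 bases before it, at bases 1839657 to 1839678, had 29 and 157 reads (32.6 and 63.9 RPM). The minus-strand members at bases 1842747 to 1842769 and 1842261 to 1842284 had 24 and 281 reads (27.0 and 114 RPM) and 20 and 136 reads (22.5 and 55.3 RPM). The plus-strand member at bases 1839792 to 1839815 had 18 and 141 reads (20.2 and 57.4 RPM).

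The same held over all members with at least 50 reads in replicate 2. The 43 of them with a single best place were all listed in replicate 1, at 1.03 to 6.27 times the RPM in replicate 2, with a median of 2.86. Of the 164 with several places, 81 were not listed in replicate 1 and 31 had over 10 times the RPM in replicate 2, which makes 112, or 68.3%. Both sets were chosen by their reads in replicate 2, which raises the ratios of both. Neither set was counted over the rest of the series, so nothing particular to the region can be read from these counts. Several sequences could share 1 place with different bases: 516 members of replicate 1 and 3800 of replicate 2 combined more than 1 listed sequence, up to 8 and 27 of them. These were 8.97% and 20.1% of the region's members, near the 10.5% and 18.5% of the rest of the series outside the block. The member with 27, in replicate 2, was that at bases 1839659 to 1839682.

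Members of opposite strands were examined for the geometry that Dicer leaves, a duplex with 3′ ends that overhang by 2 nt. Pairs of members of equal span whose overlap fell short of the span by 2 nt at each 3′ end numbered 114 in replicate 1, beside 75.6 ± 11.8 (mean and SD of the 20 other differences of start within 10 nt), a ratio of 1.51. Replicate 2 had 1150 pairs beside 871 ± 62.1, 1.32 times as many. No other difference within 10 nt reached these counts in its library, the next being 100 and 962. Among the 101 differences within 50 nt it was again the highest in replicate 2, but ranked 18th in replicate 1, where 133 pairs lay at a difference of 46 nt. The rest of the series outside the block had ratios of 1.61 and 1.39, so the region did not stand above it. By span, the ratio in replicate 2 ran from 1.24 at 23 nt to 1.60 at 25 nt, above the highest neighbour at each span from 21 to 25 nt. In replicate 1, with 9 to 39 pairs a span, it was not above the highest neighbour at 22, 23 and 25 nt.

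Diverging 5′ ends, those of a minus-strand member and of a plus-strand member to its right, lay most often with 2 bases between them, the spacing that Dicer cuts leave between successive duplexes. There were 742 such pairs in replicate 1 beside 436 ± 55.2 at the 20 neighbouring gaps, a ratio of 1.70, and 6822 beside 4617 ± 431 in replicate 2, a ratio of 1.48. No other of the 81 gaps examined had as many in either library, though in replicate 2 a gap of -1, an overlap of 1 base, had 6074. The ratios in the rest of the series were 1.86 and 1.61. On the right side of the gap they were 1.13 and 1.13. On the same strand, the 5′ end of a member lay directly behind the last base of another 1439 times in replicate 1 and 12282 times in replicate 2. This was 1.24 and 1.14 times the mean of neighbouring distances within 5 nt. The rest of the series outside the block had 1.22 and 1.15, so the region did not stand apart from it. Such pair counts are over positions of 1 library, which are not independent, and are given without a test.

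**Figure D4:**
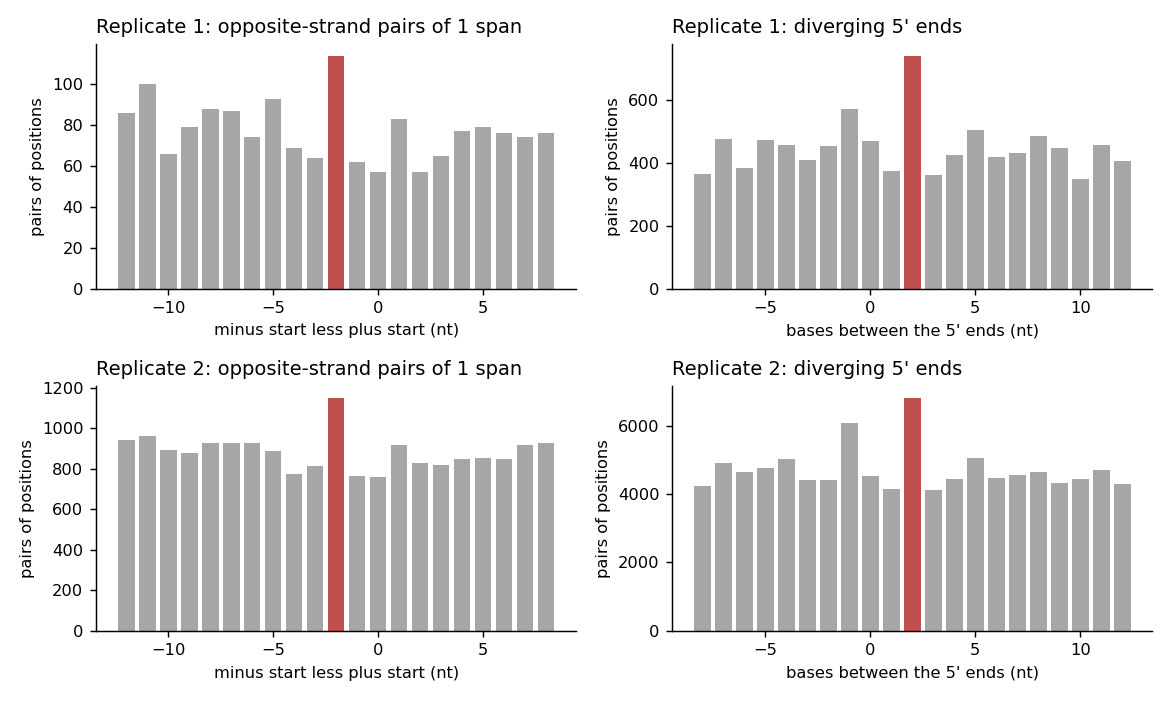
Pairs of positions on opposite strands of the region in each library, by the difference of starts for members of equal span (left, nt) and by the number of bases between diverging 5′ ends (right, nt). The red bars, at a difference of -2 nt with 114 and 1150 pairs and at a gap of 2 bases with 742 and 6822 pairs, are the highest of the 21 plotted in each panel; in replicate 1, larger pair counts lie outside the plotted differences, such as 118 at -21 nt.

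The 5′ ends of the region showed a weak step of 3 nt, of which its 3′ ends showed little or none. Distances between 5′ ends on the same strand were counted over distinct members. In replicate 2 there were 16054 pairs at 2 nt, 17903 at 3 nt and 15191 at 4 nt, then 14704 at 5 nt, 15333 at 6 nt and 13653 at 7 nt. In replicate 1 the counts at 2, 3 and 4 nt were 2004, 2127 and 1839. Of the 10 multiples of 3 nt up to 30 nt, 8 lay above both neighbours in replicate 1 and 10 in replicate 2. For 3′ ends these were 4 and 3. Distances that are multiples of 3 were 1.08 and 1.06 times as frequent as the others from 2 to 31 nt for 5′ ends (1.07 ± 0.0135, SD, n = 2), and 1.01 and 1.00 times for 3′ ends.

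**Figure D5:**
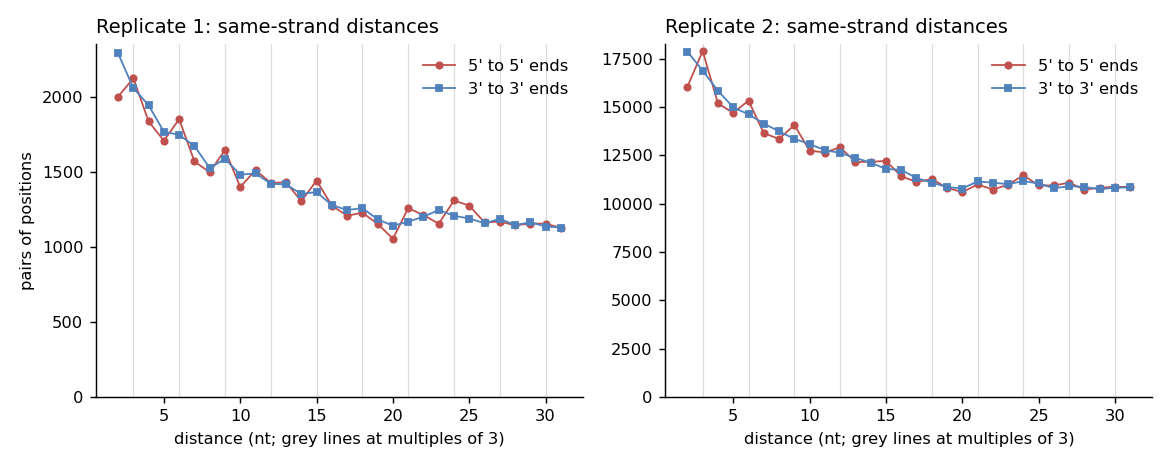
Pairs of positions on the same strand of the region by the distance in nt between their 5′ ends (circles) or 3′ ends (squares), in each library. The 5′ counts peak at 8 and 10 of the 10 multiples of 3 nt (grey lines), such as 2127 and 17903 pairs at 3 nt, and the 3′ counts at 4 and 3.

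The ratio was 1.07 and 1.05 for the plus strand, and 1.09 and 1.06 for the minus strand. The rest of the series outside the block had 1.04 and 1.05, and supercontig 5 had 1.10 and 1.06. The right side of the gap had 1.00 in both libraries. Within a window the favoured register could be seen directly, as the remainder of the 5′ position divided by 3. In bases 1842001 to 1843000, 46.2% of the plus-strand members of replicate 1 and 43.5% of those of replicate 2 had the same remainder, and on the minus strand the same remainder held 42.9% and 39.7%. It also led in bases 1841001 to 1842000, where it held 42.2% and 37.6% of the plus-strand members, and 48.0% and 40.1% of the minus-strand ones. In bases 1839001 to 1840000 the remainders were nearly even, the leading one holding 35.3% and 35.0% on the plus strand. Over the 24 dense windows and both strands, the leading remainder was the same in both libraries in 34 of 48 cases. The strands of a window shared it in 15 windows in replicate 1 and in 17 in replicate 2. These agreements include windows with nearly even remainders, and with 3 remainders some arise without any register. They were not counted elsewhere in the series, so nothing particular to the region can be read from them.

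Members of different span shared a 5′ end more often than a 3′ end. In replicate 1, 2017 pairs shared the 5′ end and 924 the 3′ end, a ratio of 2.18, and in replicate 2 there were 12155 and 7169, a ratio of 1.70. The rest of the series outside the block had ratios of 1.48 and 1.61.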

How the data were processed

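Each deposited file gives the sequences of 1 library with 1 place each on the supercontigs. The mapping score that the authors deposited lies between 0 and 37. The name the authors gave each sequence holds an index and a whole number, read here as its raw count of reads. BWA was among the tools, per the submitters' processing notes; its version, the build and all settings were not given in the sources used here. The only gene table at hand belongs to another assembly, so no annotation was joined. Per the labels' protocols, the enriched RNA was of 10 to 40 nt, and cloning needed a 5′ monophosphate and a 3′ hydroxyl. Other RNA ends are missing from the counts.

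Positions count from 1. Reads were summed per start, end and strand and per 1 kb window by leftmost base, with Python 3.11.15, numpy 2.4.6, pandas 2.3.3 and scipy 1.17.1. A mapping score of 0 was read as several equally good places. Pair and distance counts were tested on simulated data. Clopper-Pearson intervals cover counting error only, and PCR reads are not independent molecules. With 1 group of 2 libraries (889190 and 2457514 reads outside the block) no test was run. Named items are the 5 densest windows, the 10 members and the 5 single-place members with the highest mean RPM, the 5 longest empty stretches between members and the end members. The region, its members and these rules were chosen with earlier results of these data known, and the sparse and dense parts, the runs, the 3-nt step, the diverging ends and the shared ends were examined after the values were seen.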

Additional observations from a re-analysis of the deposited data

Results flagged for a closer look

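Reads under 21 nt, shorter than the sizes used above, were present in the region: replicate 1 had 6 (0.0529% of its reads there) and replicate 2 had 71 (0.0805%). With no control library at hand they were set against the 3 reads that a count of 0 allows. In the stretch from base 1853001 to base 1973000 of supercontig 2, replicate 2 had 17 reads of any span, of which 13 spanned 21 to 28 nt, and replicate 1 had 1.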

How the results depend on the processing

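Leaving out 1 of 2 libraries moves a mean by less than their SD whatever the values, so these 16 alternatives say nothing of stability. Of the others, for results with an SD between the libraries, 7 values moved by less than it and 16 by more. The leading strand of the region depended on the setting. The cause of the shifts was not tested. With sequences of a single best place alone, the plus strand held 71.2%, 23 nt held 33.7%, the pair ratio was 1.55, the 3-nt ratio 1.04 and the log2 ratio of replicate 2 over replicate 1 was 1.32, against 1.49 with all reads. With each position counted once, the shares were 51.8% on the plus strand, 29.7% at 23 nt and 82.6% with several places. The rest of the series outside the block then had 27.4% at 23 nt. With positions of at least 2 reads alone, 23 nt held 41.6%, the pair ratio was 1.81, the step of a member's own span 1.28, the 3-nt ratio 1.08, the ratio of diverging 5′ ends 1.78 and the log2 ratio of the libraries 1.93. Without the densest window the plus strand held 46.7%, 23 nt held 39.1% and the 3-nt ratio was 1.09. With neighbours within 50 nt the pair ratio fell to 1.17. Scaled to all mapped reads, the log2 ratio of the libraries was 2.78 for the region, 2.79 for the dense part (1.51 outside the block) and 0.18 for the sparse part, which turned its direction (-1.11 outside the block). Dense windows of 500 nt covered 24 kb, as did those of 1 kb. The alternatives for the 3-nt ratio, the diverging ends and the dense and sparse parts were added after seeing the data. The sparse part rests on 120 and 154 reads, of which 70 and 64 lay in 1 window.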
